A study of Mus musculus with 8 samples.

Results

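Of 8 arrays of perigonadal white adipose tissue (pgWAT), 3 were set apart by their intensity for Ogt, the transcript of O-GlcNAc transferase. The grouping was chosen by a measured value and not by genotype: with probe ILMN_2611676 the arrays labelled Con 1, Con 3 and FKO 2 lay under 210, and those labelled Con 2, Con 4, Con 5, FKO 1 and FKO 3 lay at 210 or more. The 3 are called the low-Ogt arrays here. They cut across the deposited labels, since 2 of them are labelled Con and 1 is labelled FKO, and no genotype was read from the level of Ogt. FKO mice carried Adiponectin-Cre and the floxed Ogt allele, and Con mice were their littermates with the floxed allele and no Cre. All 8 were male mice on a B6 background, labelled 15 weeks old, and had eaten a high-fat diet for 3 days. Cre was driven by the Adiponectin promoter, so that cells of the tissue other than adipocytes kept their Ogt. The labels and legends count 5 Con and 3 FKO mice, whereas the methods count them the other way round, and the methods place the start of the diet at a younger age than the labels do. The labels were followed, and each array stands for 1 mouse.

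OGT attaches single N-acetylglucosamine sugars (O-GlcNAc) to serine and threonine residues of proteins of the nucleus, cytoplasm and mitochondria, and OGA removes them. The sugar donor, UDP-GlcNAc, is made by the hexosamine pathway from glucose, glutamine, acetyl-CoA and UTP, so that the modification follows nutrient supply. In white fat, adipocytes store triglycerides and share the tissue with endothelial cells, progenitors, fibroblasts, mesothelial cells and macrophages. In bulk RNA, fewer cells of a type and less RNA per cell cannot be told apart.

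The deposited intensities are linear and carry an unsubtracted background whose limit was taken as 106.1, so that folds of dim probes are compressed. Of 25697 probes, 13877 lay above that limit on at least 3 arrays and are called tested. They stand for 9648 genes, each read by its brightest probe. Between 51.5% and 51.6% of all probes per array lay above the limit. With 8 arrays, precision is limited by their number. Transcripts of the epididymis, a tube that lies against this fat pad, were carried by FKO 1, FKO 3 and Con 2, all of which are on the other side of the Ogt threshold from the low-Ogt arrays. The adipocyte hormones Adiponectin and Leptin were bright throughout: Adipoq read 9915 to 10290 on the low-Ogt arrays, against 7496 to 10670 on the others. Values below are deposited intensities in the order Con 1, Con 3 and FKO 2 for the low-Ogt arrays, and Con 2, Con 4, Con 5, FKO 1 and FKO 3 for the others. Because a measured value made the 2 sets, no mean, error or test is given over them. A gene is said to part the arrays where all 3 low-Ogt arrays lie below, or all 3 above, each of the other 5, and lowest or highest of a gene always means so on all 3. The separation is the log2 distance between the nearest arrays of the 2 sets after background correction.

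Ogt itself was the measure behind the grouping. With the brightest probe, ILMN_2611676, it read 188, 199 and 177 on the low-Ogt arrays, against 264, 232, 267, 296 and 259.9 on the others. The nearest arrays on either side of the threshold were Con 3 at 199 and Con 4 at 232. The second probe, ILMN_1247078, gave 116, 117 and 117 on the low-Ogt arrays, against 141, 156, 169, 158 and 144 on the others. The third, ILMN_2647864, gave 113, 118 and 115 on the low-Ogt arrays, against 146, 144, 149.8, 149.9 and 129 on the others. All 3 probes therefore put the same arrays lowest, and with the dimmer pair the low-Ogt arrays lay close to the background limit. The plot of Ogt by array shows this with the label of each. Set by label, FKO against Con, the log2 fold change was 0.08 with ILMN_2611676 (standard error 0.23, exact permutation test over 56 splits, two-sided, p = 0.768), 0.01 with ILMN_1247078 (standard error 0.21, exact permutation p = 0.946) and −0.04 with ILMN_2647864 (standard error 0.18, exact permutation p = 0.946). The targeted gene thus did not part the labelled groups. Where these probes lie relative to the floxed exons was not settled here.

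**Figure D1:**
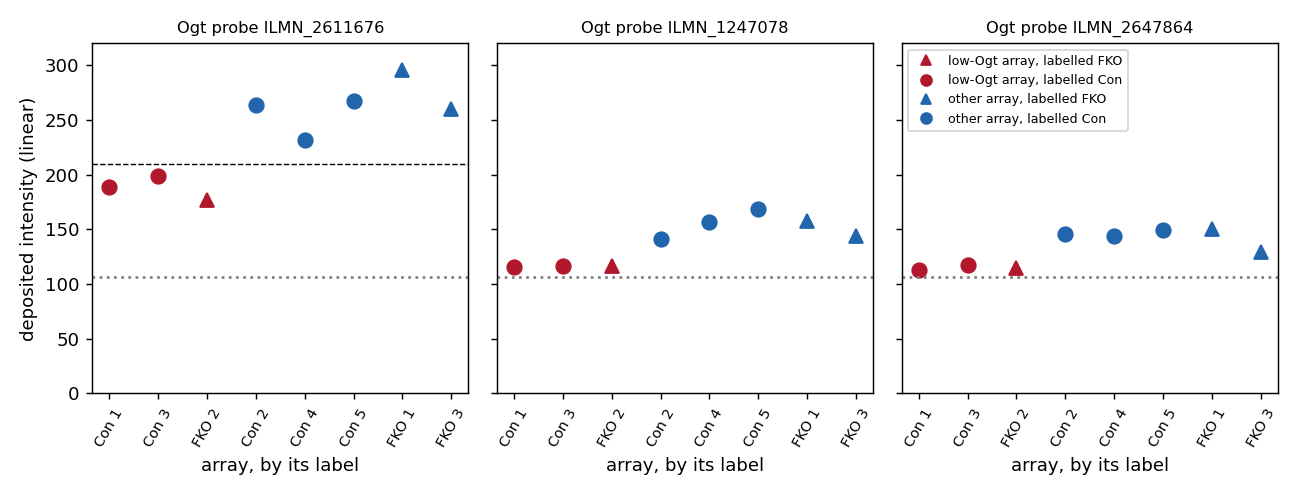
Deposited linear intensity of the 3 Ogt probes on each array, with the 3 low-Ogt arrays on the left of each panel (red) and the other 5 on the right (blue), FKO as triangles and Con as circles. The dashed line is the threshold of 210 and the dotted line the background limit; the low-Ogt arrays read 177 to 199 in the left panel and the others 232 to 296.

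Of the tested probes, 1546 (11.1%) were lowest and 1976 (14.2%) highest on all 3 low-Ogt arrays. By gene these were 1126 (11.7%) lowest and 1431 (14.8%) highest, while for 7091 genes the sets overlapped. A separation of at least 1 on the log2 scale was found for 15 probes lower (0.108%) and 5 higher (0.036%) on the low-Ogt arrays. These shares are a description of the arrays and serve as the background for every gene list below. Principal component 1, which held 53.8% of the variance, placed Con 1, Con 3 and FKO 2 at 21.5, 20.6 and 23.3 on the low-Ogt side, against −11.3, 3.40, 3.90, −24.8 and −36.6 for the others. Component 2 (18.2%) gave 9.70, 6.10 and 11.1 for the low-Ogt arrays, within the range of −22.2 to 14.7 of the others. The low-Ogt arrays thus lay close together on both, and the other 5 were spread out, with the epididymal arrays FKO 1 and FKO 3 furthest away on component 1.

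The pattern was also read in one label at a time. Among Con arrays, 132 probes were at least 1.5-fold lower on Con 1 and Con 3 than on Con 2, Con 4 and Con 5. On the FKO arrays, 130 of these (98.5%) were lower on FKO 2 than on FKO 1 and FKO 3, where 32.0% of all tested probes were, and 1 ran the opposite way. Another 80 probes were at least 1.5-fold higher on Con 1 and Con 3, and 78 of them (97.5%) were higher on FKO 2 than on both other FKO arrays, against 43.0% of all tested probes. Chosen on the FKO arrays instead, 442 probes were lower on FKO 2, of which 212 (48.0%) were lowest on Con 1 and Con 3 among Con arrays (all tested probes, 19.0%). Of 350 probes higher on FKO 2, 300 (85.7%) were highest on Con 1 and Con 3 (all tested probes, 21.2%). FKO 1 and FKO 3 both carry epididymal transcripts, and how far these set the probes chosen on FKO arrays was not tested. The chosen probes had a gap of at least 1.5-fold, whereas no gap was asked of all tested probes, so the 2 shares are not like for like. Ogt on all 8 arrays had set which arrays were put together, so these counts are descriptions and no independent support.

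Genes of fatty acid synthesis, desaturation and acetate use held several of the widest separations, although the list as a whole went both ways. 5 of 22 were lowest and 4 highest, where all tested genes gave 11.7% and 14.8%. The 4 count Elovl3, at 111.1 on every low-Ogt array and 93.8 to 99.8 on the others, under the background limit. Its separation is not read, since it was tested through the low-Ogt arrays alone. Scd2, a stearoyl-CoA desaturase that puts the first double bond into saturated fatty acids, read 156, 164 and 154 on the low-Ogt arrays, against 649.5, 499.7, 679, 414 and 1021 on the others (separation −1.60). Acss2, which makes acetyl-CoA from acetate, read 1026, 1203 and 1082 on the low-Ogt arrays, against 4231, 2500, 5531, 2594 and 4619 on the others (−1.08). Both were lower on each low-Ogt array than on any other, and the low-Ogt arrays lay closer together than the others did. Both genes were named for their wide separation, a choice that sets this order and favours tight sets. Tecr, the last enzyme of very-long-chain fatty acid elongation, read 958, 900.4 and 1156 on the low-Ogt arrays, against 1926, 1812, 1983, 2048 and 3069 on the others (−0.67). Srebf1, the transcription factor of lipogenic genes, parted the arrays narrowly at 168, 207 and 176 on the low-Ogt arrays, against 308, 219, 357, 256 and 330.1 on the others (−0.10). Hacd2, an elongation dehydratase, ran the other way, with 609 to 635 on the low-Ogt arrays, against 402 to 505 on the others (0.29). Of the triglyceride list, 4 of 23 (17.4%) were lowest and 4 (17.4%) highest, near the shares of all tested genes. There Mogat1 and Dgat1, acyltransferases of triglyceride synthesis, were lower on the low-Ogt arrays (−0.72 and −0.33), and Mogat2 was higher (0.18).

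**Figure D2:**
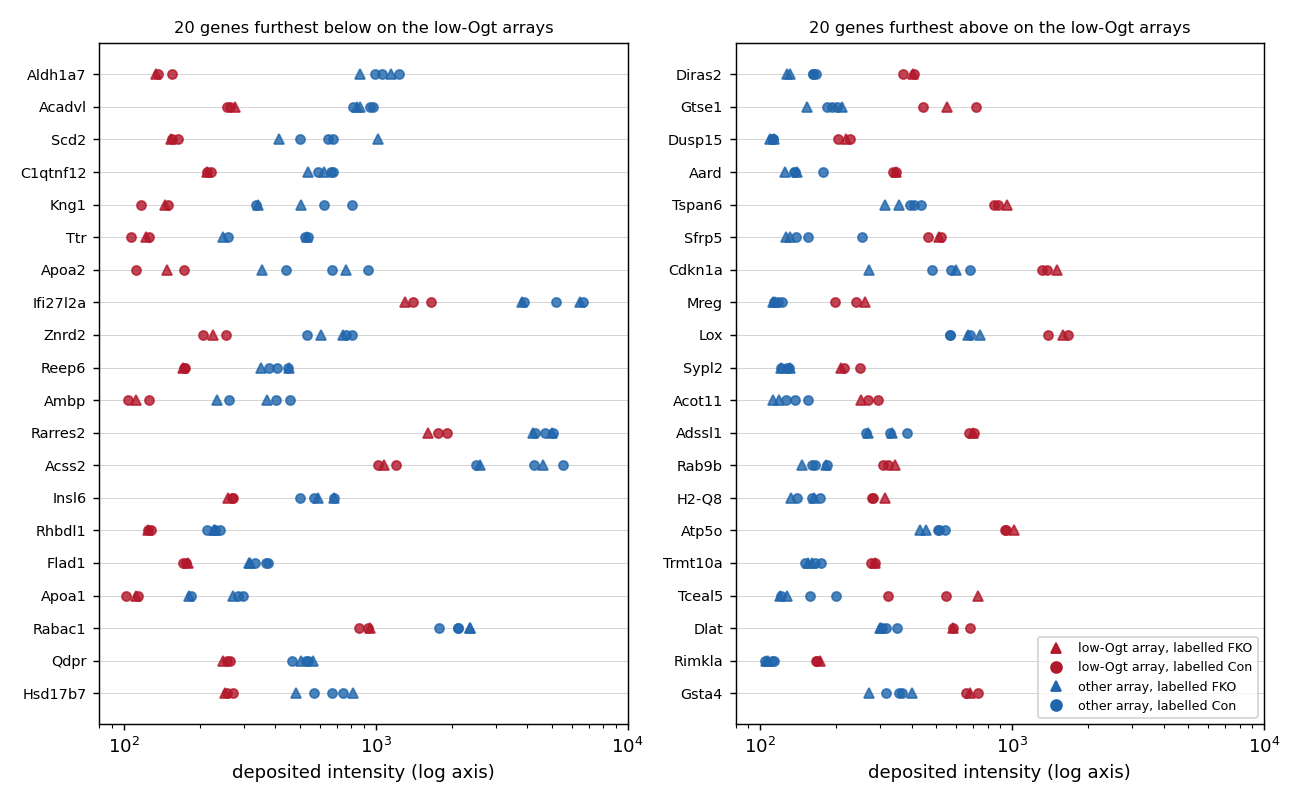
Deposited intensity, on a log axis, of the 20 genes with the widest separation below (left) and above (right) on the low-Ogt arrays, 1 point per array, low-Ogt arrays in red and the others in blue, FKO as triangles and Con as circles. No red and blue points of a gene overlap, since the genes were ranked by that separation; Aldh1a7 stands out with 134 to 156 on the low-Ogt arrays, against 866 to 1238 on the others.

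Single oxidizing enzymes parted the arrays widely, while their lists went both ways. Aldh1a7, an aldehyde dehydrogenase, had the widest separation of all genes, reading 137, 156 and 134 on the low-Ogt arrays, against 1238, 992, 1057, 866 and 1150 on the others (−2.84). Acadvl, which opens the beta-oxidation of very long-chain fatty acids, read 258, 264 and 277 on the low-Ogt arrays, against 973, 812, 946, 869 and 842 on the others (−1.71). For Acadvl the low-Ogt arrays nearly coincided. Acadvl was named for its wide separation, so a spread within each set smaller than the distance between them was favoured by that choice. Etfdh, which passes electrons from beta-oxidation to the respiratory chain, read 472, 495 and 489.7 on the low-Ogt arrays, against 793, 957, 882, 808 and 676 on the others (−0.48). Acadm, the medium-chain dehydrogenase, was instead higher, with 11320 to 11490 on the low-Ogt arrays, against 6809 to 9243 on the others (0.29). Of the fatty acid oxidation list, 7 of 31 (22.6%) were lowest and 9 (29.0%) highest, beside 11.7% and 14.8% of all tested genes. Of the aldehyde dehydrogenases, 2 of 15 were lowest and 3 highest, close to the shares of all tested genes, Aldh4a1 of proline breakdown being higher at 2369 to 2573 on the low-Ogt arrays, against 1411 to 1827 on the others (0.38).

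Sterol synthesis and uptake was the list with the largest share of genes lowest on the low-Ogt arrays among lists of 15 or more tested genes. Of its 18 tested genes, 9 (50%) were lowest and 0 highest, beside 11.7% and 14.8% of all tested genes. The median log2 deviation of its genes from their mean over 8 arrays was −0.32, −0.18 and −0.24 on the low-Ogt arrays, against 0.25, −0.04, 0.37, −0.07 and 0.43 on the others, and that of all tested genes stayed between −0.03 and 0.01. Con 4 and FKO 1 thus lay between the low-Ogt arrays and Con 2, Con 5 and FKO 3. Hsd17b7, which reduces a keto group in cholesterol synthesis, read 272, 258 and 253 on the low-Ogt arrays, against 669, 571, 741, 482 and 814 on the others (separation −0.93). Pmvk, the phosphomevalonate kinase, read 250.5, 255 and 251 on the low-Ogt arrays, against 494, 364, 489, 355 and 558 on the others (−0.55). Msmo1, a methylsterol oxidase, read 411, 421 and 389.9 on the low-Ogt arrays, against 700.1, 593, 693, 582.4 and 904 on the others (−0.51), and Cyp51, the lanosterol demethylase, read 204, 204 and 206 on the low-Ogt arrays, against 339.6, 262, 428, 329.5 and 503 on the others (−0.41). Fdps, which makes farnesyl pyrophosphate, read 717, 706 and 763 on the low-Ogt arrays, against 1783, 935, 2097, 1414 and 2752 on the others (−0.31), with Con 4 nearest to the low-Ogt arrays. Sqle, the squalene epoxidase, read 274 to 317 on the low-Ogt arrays, against 382 to 828 on the others. Hmgcs1, the enzyme that commits acetyl units to the pathway, did not part the arrays, with 9544 to 11020 on the low-Ogt arrays, against 7881 to 11490 on the others, nor did the regulator Insig2 or Srebf2, the transcription factor of the pathway, at 137 to 150.3 on the low-Ogt arrays, against 134 to 177 on the others. Leaving out the 3 epididymal arrays, 13 of the 18 genes were lowest on the low-Ogt arrays and 0 highest, beside 20.5% and 22.7% of all tested genes.

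The promoters of the sterol genes were searched because 9 of the 18 tested genes were lowest on the low-Ogt arrays, while the other 9 overlapped. NF-Y, which binds CCAAT, and SREBP, which binds the sterol response element, are known factors of the pathway, and their binding was not tested. The sterol windows printed all belong to genes lowest on the low-Ogt arrays. RefSeq sequences (GRCm38.p6, 250 bases before to 50 after the start site) were found for 15 of the 18 tested genes. The CCAAT box, in capitals on either strand, was in 14 of the 15, 6 of 6 among those lowest on the low-Ogt arrays and 8 of 9 among those whose arrays overlapped, and in 37.4% of 32851 mouse promoters of this length. The windows are those of Hsd17b7 (chr1:169969156-169969455, minus strand), Pmvk (chr3:89454291-89454590, plus strand), Cyp51 (chr5:4104648-4104947, minus strand), Msmo1 (chr8:64733529-64733828, minus strand) and, for comparison, Acss2 (chr2:155517793-155518092, plus strand).
Hsd17b7: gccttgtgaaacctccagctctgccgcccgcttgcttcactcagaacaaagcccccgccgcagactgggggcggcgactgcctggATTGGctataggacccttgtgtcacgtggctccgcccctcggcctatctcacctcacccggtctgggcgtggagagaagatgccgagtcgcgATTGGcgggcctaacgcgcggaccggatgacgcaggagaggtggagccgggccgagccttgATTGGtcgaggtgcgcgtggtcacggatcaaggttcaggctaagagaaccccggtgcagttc
Pmvk: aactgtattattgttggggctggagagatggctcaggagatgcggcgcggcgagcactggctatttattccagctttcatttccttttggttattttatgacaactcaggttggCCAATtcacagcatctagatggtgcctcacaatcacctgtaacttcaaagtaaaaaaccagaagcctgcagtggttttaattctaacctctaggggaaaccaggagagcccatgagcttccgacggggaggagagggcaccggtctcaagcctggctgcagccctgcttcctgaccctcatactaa
Cyp51: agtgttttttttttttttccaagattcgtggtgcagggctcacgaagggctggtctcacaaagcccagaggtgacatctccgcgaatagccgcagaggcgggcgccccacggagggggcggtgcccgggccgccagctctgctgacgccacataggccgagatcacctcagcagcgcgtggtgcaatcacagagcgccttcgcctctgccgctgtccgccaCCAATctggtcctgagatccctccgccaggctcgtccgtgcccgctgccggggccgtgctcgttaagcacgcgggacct
Msmo1: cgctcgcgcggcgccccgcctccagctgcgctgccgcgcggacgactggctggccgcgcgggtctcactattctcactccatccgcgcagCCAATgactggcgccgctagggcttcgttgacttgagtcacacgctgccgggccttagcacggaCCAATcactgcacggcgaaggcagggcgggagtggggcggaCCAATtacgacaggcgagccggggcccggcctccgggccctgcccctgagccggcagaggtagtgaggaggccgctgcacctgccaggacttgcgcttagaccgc
Acss2: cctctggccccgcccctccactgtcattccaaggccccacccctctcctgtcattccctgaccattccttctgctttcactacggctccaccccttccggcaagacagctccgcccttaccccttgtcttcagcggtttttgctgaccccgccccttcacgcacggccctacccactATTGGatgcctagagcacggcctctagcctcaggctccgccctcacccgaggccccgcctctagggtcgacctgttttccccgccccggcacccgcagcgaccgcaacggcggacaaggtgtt
The sterol response element TCACNCCAC was in 1 of the 15 (Hmgcs1) and in 1.24% of all promoters, and the E-box CACGTG in 3 of the 15 (Hsd17b7, Insig1 and Sc5d) and 7.15% of all. Of the 20 genes furthest below on the low-Ogt arrays, 12 had a promoter in the table and 8 of these held CCAAT. Of the 20 furthest above, 15 had one and 6 held it. Other letters searched on both strands were TCAAGGTCA, TGACGTCA and TTGCATCA, and 0 of the 12, 15 and 15 promoters searched (genes below, genes above and sterol genes) held one, against 0.423%, 1.79% and 0.895% of all promoters. The matches describe letters in these windows, and both sterol genes that parted the arrays and those that did not hold CCAAT.

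Subunits of the respiratory chain were more often lowest than highest on the low-Ogt arrays. For complexes II to V, 16 of 42 (38.1%) were lowest and 2 (4.8%) highest, and for complex I, 9 of 36 (25%) were lowest and 2 (5.6%) highest. All tested genes gave 11.7% and 14.8%. The median deviation for complexes II to V was −0.14, −0.20 and −0.11 on the low-Ogt arrays, against 0.28, −0.12, 0.22, 0.12 and 0.04 on the others, so that Con 4 lay with the low-Ogt arrays in this median. For complex I it did so too, at −0.17 beside −0.03, −0.18 and −0.14 on the low-Ogt arrays. Uqcr10, a small subunit of complex III, read 3469, 2665 and 3096 on the low-Ogt arrays, against 9613, 6138, 9915, 7271 and 7335 on the others (separation −0.83). Atp5g1, which encodes subunit c of the ATP synthase ring, read 679, 595 and 597 on the low-Ogt arrays, against 1815, 1004, 1416, 1428 and 1602 on the others (−0.59), and Atp5d, of its central stalk, read 700.5, 659.7 and 703 on the low-Ogt arrays, against 1207, 1063, 1072, 1035 and 979 on the others (−0.50). Atp5o, the oligomycin sensitivity subunit of the same synthase, ran the other way, with 937, 944 and 1016 on the low-Ogt arrays, against 508, 542, 514, 432 and 457 on the others (0.84), and Ndufa9 of complex I did so too, with 5282, 5282 and 5436 on the low-Ogt arrays, against 3231, 3998, 3432, 3540 and 3411 on the others (0.41). Ribosomal protein genes showed a like asymmetry of smaller size: 8 of 45 (17.8%) were lowest and 0 highest, with Rps3 furthest at 3548 to 3569 on the low-Ogt arrays, against 4007 to 5062 on the others (−0.17). Their median deviation was −0.09, −0.20 and −0.14 on the low-Ogt arrays, against 0.22, −0.16, 0.15, 0.09 and 0.22 on the others, so that Con 4 again lay with the low-Ogt arrays. The sets of mitochondrial ribosome genes split, since 11 of 68 (16.2%) were lowest and 15 (22.1%) highest, beside 11.7% and 14.8% of all tested genes. There Mrpl34 of the large subunit was lower, with 281, 265 and 269 on the low-Ogt arrays, against 688, 469, 650.2, 492 and 599.5 on the others (−0.83), and Mrps22 of the small subunit higher, with 1597, 1454 and 1785 on the low-Ogt arrays, against 835, 695, 903, 597 and 857 on the others (0.71).

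Around the TCA cycle, 9 of 29 (31.0%) were lowest and 6 (20.7%) highest, beside 11.7% and 14.8% of all tested genes. Dlat, the acetyltransferase of pyruvate dehydrogenase, read 583, 679 and 581 on the low-Ogt arrays, against 315, 306, 349, 303 and 298 on the others (separation 0.81), and Sdhc, a membrane anchor of succinate dehydrogenase, read 1453, 1486 and 1453 on the low-Ogt arrays, against 2611, 2060, 1991, 2260 and 2130 on the others (−0.43). Idh3a, which oxidizes isocitrate, was higher at 1669 to 2026 on the low-Ogt arrays, against 1024 to 1385 on the others (0.28). Of the peroxisome list, 11 of 44 were lowest and 3 highest, led by Mpv17, a membrane protein of mitochondria, with 461, 451 and 485 on the low-Ogt arrays, against 763, 1016, 909.5, 825 and 729 on the others (−0.63), and by its peroxisomal relative Pxmp2 with 220.1 to 231 on the low-Ogt arrays, against 290.0 to 488 on the others (−0.39). Among glutathione genes, 8 of 30 (26.7%) were lowest and 4 (13.3%) highest. The transferase Gsta4, which conjugates lipid aldehydes, was higher, with 654, 735 and 678 on the low-Ogt arrays, against 356, 366, 316, 401 and 272 on the others (0.77), as was Gsto1 with 1559 to 2130 on the low-Ogt arrays, against 878 to 1082 on the others (0.54), while Mgst2 was lower with 231 to 251 on the low-Ogt arrays, against 332 to 485 on the others (−0.47). For mitochondrial import and carriers, 3 of 42 (7.1%) were lowest and 8 (19.05%) highest, near the 11.7% and 14.8% of all tested genes.

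**Figure D3:**
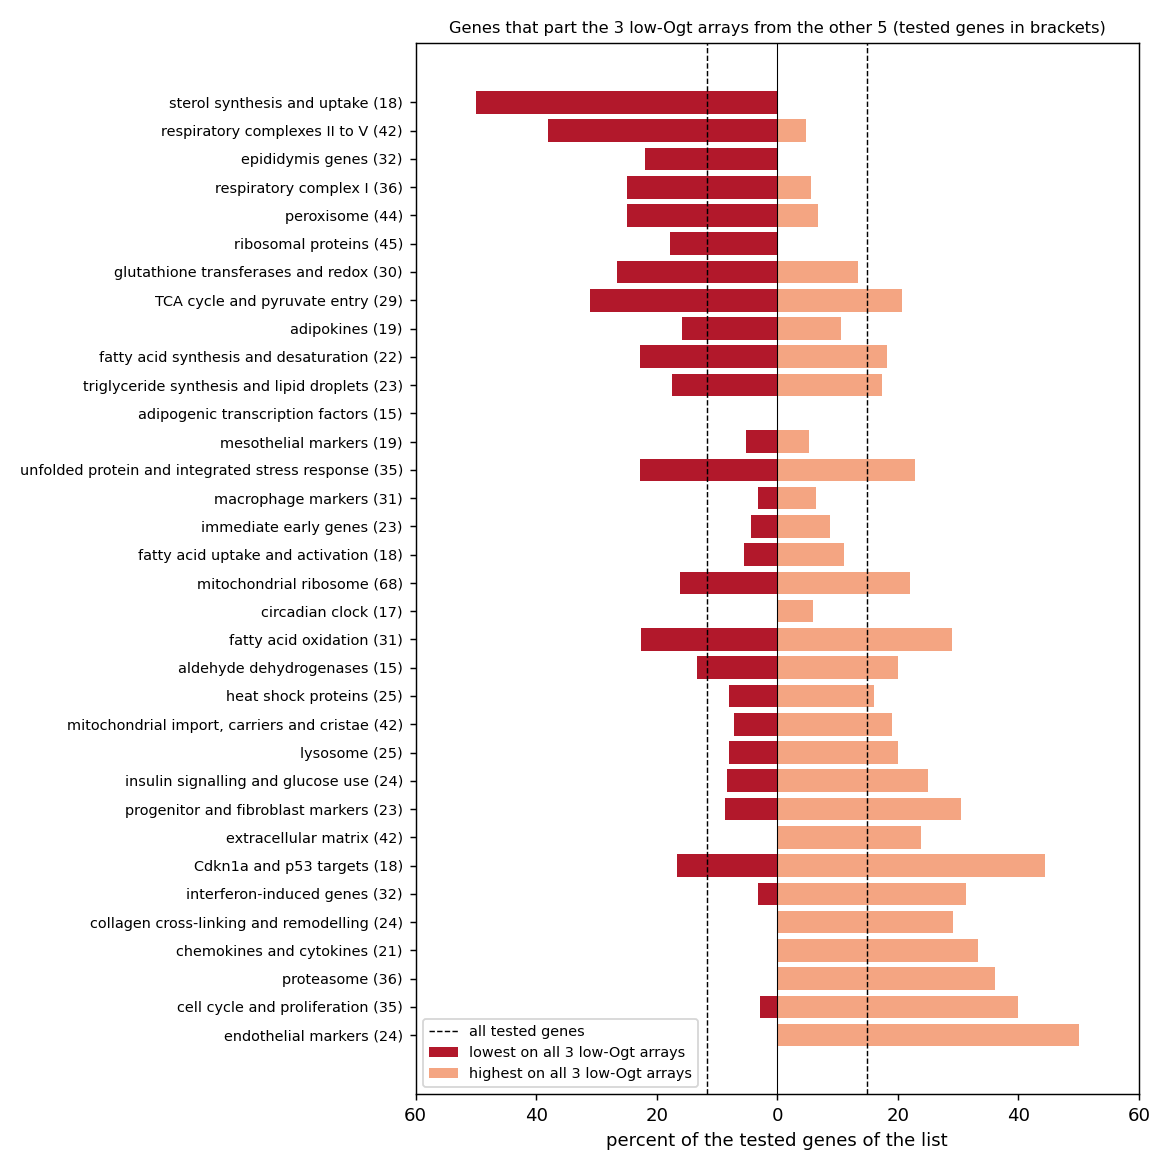
Percent of the tested genes of each list with 15 or more tested genes that were lowest on all 3 low-Ogt arrays (dark bars, to the left) or highest on them (light bars, to the right), with dashed lines at 11.7% and 14.8% for all tested genes. Sterol synthesis and uptake reaches 50% on the left and 0% on the right, and endothelial markers 0% on the left and 50% on the right.

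Of the adipokine list, 3 of 19 (15.8%) were lowest and 2 (10.5%) highest, near the shares of all tested genes, but single members parted the arrays widely. C1qtnf12, an adipokine that sensitizes tissues to insulin, read 214, 223 and 215 on the low-Ogt arrays, against 678, 591, 666, 625 and 539.7 on the others (separation −1.45). Rarres2, which encodes the adipokine chemerin, read 1773, 1923 and 1614 on the low-Ogt arrays, against 5062, 4700, 4288, 5012 and 4196 on the others (−1.14). Sfrp5, a secreted Wnt antagonist of fat, was higher instead, with 523, 465 and 512 on the low-Ogt arrays, against 155, 254, 138, 127 and 132 on the others (0.99), Con 4 being the brightest of the others. Some genes best known from the liver were dim on the low-Ogt arrays, and they were picked after their values were seen. Ttr, which carries thyroid hormone and retinol-binding protein, read 126, 107 and 122 on the low-Ogt arrays, against 540.3, 525, 260.1, 532 and 247 on the others (−1.27). Apoa2, of high-density lipoprotein, read 173, 112 and 148 on the low-Ogt arrays, against 669.5, 934, 442, 764 and 353 on the others (−1.24), and Kng1, the kininogen, read 150.5, 118 and 146 on the low-Ogt arrays, against 624, 803, 336, 506 and 342 on the others (−1.42). In each of these, Con 5 and FKO 3 were the lowest of the other arrays. Ambp, Apoa1 and Apoc3 had the same order of sets (−1.18, −0.95 and −0.22), and Ambp and Apoa1 were at or near the background limit on the low-Ogt arrays. Alb, the albumin gene, lay under the limit on all 8 arrays, with 96.1 to 98.2 on the low-Ogt arrays, against 92.8 to 103 on the others. Of the apolipoprotein and carrier list, 4 of 12 (33.3%) were lowest, 7 overlapped and 1 (8.3%) was highest, beside 11.7% lowest and 14.8% highest of all tested genes. The highest was Hp, the haptoglobin gene, with 14900 to 15850 on the low-Ogt arrays, against 11930 to 13690 on the others (0.12). Its other tested probes gave 0.15 and 0.18.

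Cell cycle genes were more often highest on the low-Ogt arrays than lowest. Of the list, 1 of 35 (2.9%) was lowest and 14 (40%) highest, beside 11.7% and 14.8% of all tested genes. Cdk1, the kinase that drives mitosis, read 294, 229 and 316 on the low-Ogt arrays, against 158, 123, 181, 137 and 168 on the others (separation 0.42). Tyms, the thymidylate synthase, read 334, 319 and 368 on the low-Ogt arrays, against 215, 191, 265, 229 and 251 on the others (0.31). The other tested probe of Tyms overlapped, with 126.1 to 139.3 on the low-Ogt arrays, against 115.3 to 137.8 on the others. Ccnd2, a D-type cyclin, was the single gene of the list lowest on the low-Ogt arrays, with 419.9, 307 and 494 on the low-Ogt arrays, against 852, 944, 778, 863 and 901 on the others (−0.70). The median deviation of the list was 0.36, 0.06 and 0.33 on the low-Ogt arrays, against −0.17, −0.38, 0.06, −0.21 and −0.06 on the others, so that Con 3 stood level with Con 5. Gtse1, a G2 and S phase protein that restrains p53 and is in none of the lists, read 718, 442 and 555 on the low-Ogt arrays, against 192, 184, 201, 153 and 211 on the others (1.23). Of p53 targets, a separate list, 3 of 18 (16.7%) were lowest and 8 (44.4%) highest. Among them Cdkn1a, which encodes the cyclin-dependent kinase inhibitor p21, read 1374, 1312 and 1510 on the low-Ogt arrays, against 573, 479.9, 683, 271 and 601 on the others (0.99), and its other tested probes gave separations of 0.80 and 0.95. Mdm2, the ligase that degrades p53, read 1040 to 1093 on the low-Ogt arrays, against 698 to 869 on the others (0.27). The other tested probe of Mdm2 overlapped, with 596.8 to 656.5 on the low-Ogt arrays, against 444.5 to 618.7 on the others. Cdkn2a, which encodes p16 and p19, read 138, 136 and 154 on the low-Ogt arrays. With this probe it was under the background limit on all of the others. It was thus tested through the low-Ogt arrays alone, and its separation is not read, although it counts among the 8 highest. Its other probe read 122, 117 and 136 on the low-Ogt arrays, against 101, 92.8, 112.5, 98.4 and 103 on the others.

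Matrix genes that parted the arrays were all higher on the low-Ogt ones. Of the extracellular matrix list, 0 of 42 were lowest and 10 (23.8%) highest, and of collagen cross-linking and remodelling genes, 0 of 24 were lowest and 7 (29.2%) highest. All tested genes gave 11.7% lowest and 14.8% highest. Lox, the lysyl oxidase that cross-links collagen and elastin, read 1661, 1393 and 1594 on the low-Ogt arrays, against 569, 683, 566, 667 and 748 on the others (separation 0.94). Col18a1, a basement membrane collagen, read 5247, 5367 and 5062 on the low-Ogt arrays, against 2805, 3623, 2450, 2084 and 2476 on the others (0.49). Plod2, a lysyl hydroxylase of collagen, read 164 to 169 on the low-Ogt arrays, against 126 to 137 on the others (0.36), and Nid2, a linker of basement membranes, 1332 to 1856 on the low-Ogt arrays, against 781 to 1093 on the others (0.30). Fibrillar collagens followed little: Col1a1 parted the arrays by 0.02, and Col3a1 overlapped at 331 to 388 on the low-Ogt arrays, against 306 to 414 on the others.

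Among markers of other cell types, those of the endothelium stood furthest from the shares over all tested genes. They had the largest share of highest genes, since 0 of 24 were lowest and 12 (50%) highest, beside 11.7% and 14.8% of all tested genes. Pecam1, a junction protein of endothelial cells, read 721, 636 and 837 on the low-Ogt arrays, against 423, 448, 455, 474 and 354 on the others (separation 0.46), and Cdh5, their cadherin, read 271, 244 and 283 on the low-Ogt arrays, against 206, 181, 187, 209 and 164 on the others (0.27). Kdr, the main VEGF receptor, stayed near the background limit on every array, with 105 to 109 on the low-Ogt arrays, against 105 to 112 on the others. The summed intensity of the list was 25710 to 26880 on the low-Ogt arrays, against 15860 to 22410 on the others, and FKO 3 was lowest in its median deviation, which was 0.14, 0.24 and 0.32 on the low-Ogt arrays, against −0.11, −0.08, 0.03, 0.01 and −0.49 on the others. Progenitor and fibroblast markers went partly the same way: 2 of 23 (8.7%) were lowest and 7 (30.4%) highest. Dpt, a matrix protein of fibroblasts, was at 1562, 1555 and 1578 on the low-Ogt arrays, against 1082, 1061, 1110, 1029 and 934 on the others (0.50). The summed intensity of this list overlapped, at 26050 to 27350 on the low-Ogt arrays, against 20470 to 30560 on the others. For macrophage markers, 1 of 31 was lowest and 2 highest, and the sum was 56300 to 59230 on the low-Ogt arrays, against 50140 to 59270 on the others. Mesothelial markers gave 1 lowest and 1 highest of 19, those of mast cells and neutrophils 0 and 0 of 10, and those of T, NK and B cells 0 and 1 of 10. These shares, like that of macrophages, were near or under those of all tested genes. Without the 3 epididymal arrays, 9 of 31 macrophage markers (29.0%) were lowest and 2 (6.5%) highest, beside 20.5% and 22.7% of all tested genes. Itgax, a marker of inflammatory macrophages, was under the limit throughout, and Cd9, which other cells also make, was the widest of the list at 751 to 885 on the low-Ogt arrays, against 336 to 518 on the others (0.57). What part these cell types have in the matrix, cell cycle and chemokine values was not tested.

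Chemokines and genes that answer to interferon were likewise more often highest. Of chemokines and cytokines, 0 of 21 were lowest and 7 (33.3%) highest, beside 11.7% and 14.8% of all tested genes. Cxcl12, a stromal chemokine that retains leukocytes and progenitors, read 1651, 1266 and 1535 on the low-Ogt arrays, against 667, 516, 795, 754 and 476 on the others (separation 0.70), and its 2 dimmer probes gave 0.29 and 0.34. Cxcl10, induced by interferon, read 131 to 160.1 on the low-Ogt arrays, against 105 to 108 on the others (0.41). Of interferon-induced genes, 1 of 32 (3.1%) was lowest and 10 (31.25%) highest. Igtp, a GTPase induced by interferon gamma, read 534, 308 and 358 on the low-Ogt arrays, against 202, 240.0, 189.5, 231 and 182 on the others (0.42). Ifi27l2a ran against the rest of the list and was lowest on the low-Ogt arrays by 1.22. Proteasome genes parted the arrays in 1 direction only: 0 of 36 were lowest and 13 highest, both for the immunoproteasome subunit Psmb9 at 326 to 446 on the low-Ogt arrays, against 183 to 267 on the others (0.33) and for the constitutive subunit Psmb6 at 2636 to 2738 on the low-Ogt arrays, against 1775 to 2167 on the others (0.29). H2-Q8, an MHC class Ib gene with near-identical relatives that a probe may also read, was higher at 278 to 312 on the low-Ogt arrays, against 132 to 173 on the others (0.84).

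**Figure D4:**
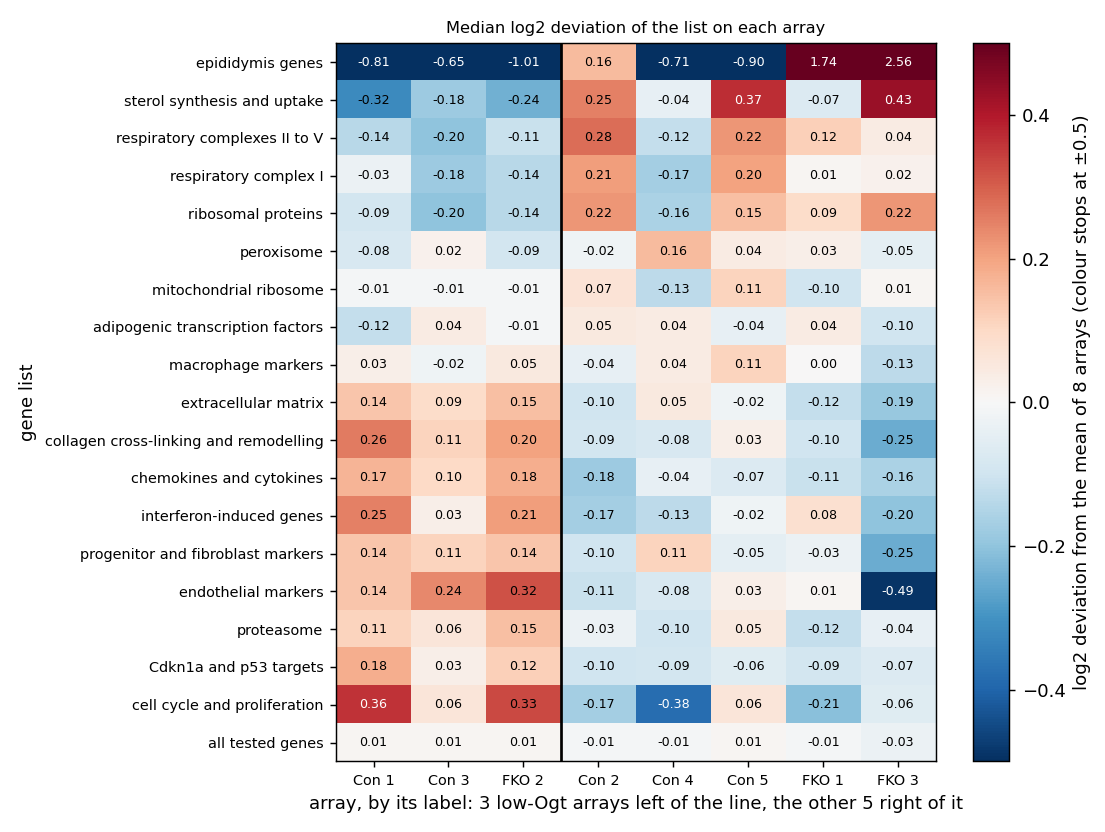
Median log2 deviation of each gene list from the mean of 8 arrays, for each array, with the 3 low-Ogt arrays left of the line and the other 5 right of it; colours stop at ±0.5 and the printed number is the median. Endothelial markers read 0.14 to 0.32 on the low-Ogt arrays and −0.49 to 0.03 on the others, and the epididymis list reaches 1.74 and 2.56 on FKO 1 and FKO 3.

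The transcription factors of adipocyte identity did not part the arrays: 0 of 15 were lowest and 0 highest, out of a background of 11.7% and 14.8%. Pparg, the master regulator of adipocytes, read 2701, 3862 and 3369 on the low-Ogt arrays, against 3583, 3910, 3711, 3534 and 3114 on the others. Lipolysis genes gave 3 lowest (21.4%) and 2 highest (14.3%) of 14. Hcar1, the lactate receptor that curbs lipolysis, read 133 to 165 on the low-Ogt arrays, against 203 to 388 on the others (separation −0.38). In insulin signalling and glucose use, 2 of 24 (8.3%) were lowest and 6 (25%) highest. Slc2a1, the basal glucose transporter, was higher with 679.5, 722 and 690.3 on the low-Ogt arrays, against 469, 512, 375, 405 and 410.2 on the others (0.44), and Irs2, an insulin receptor substrate, lower with 164, 157 and 171 on the low-Ogt arrays, against 230.0, 351, 206, 368 and 199 on the others (−0.28). The insulin-driven transporter Slc2a4 overlapped at 267 to 346 on the low-Ogt arrays, against 304 to 377 on the others. Genes of the integrated stress response pointed both ways, as 8 of 35 (22.9%) were lowest and 8 (22.9%) highest, beside 11.7% and 14.8% of all tested genes. Asns, the asparagine synthetase, read 659.7, 827 and 686 on the low-Ogt arrays, against 1373, 1854, 1227, 1667 and 1175 on the others (−0.53), and Phgdh, the first enzyme of serine synthesis, read 293, 266 and 310.2 on the low-Ogt arrays, against 426, 673, 519.7, 563 and 415 on the others (−0.47), with Con 4 and FKO 1 the brightest for both.

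The rest of the O-GlcNAc pathway did not follow Ogt. Of 9 tested genes of O-GlcNAc cycling and hexosamine synthesis, 1 was lowest (Ogt itself) and 1 highest on the low-Ogt arrays (Amdhd2, a deacetylase of GlcNAc phosphate, by 0.06). Oga, whose product removes the sugar, lay under the background limit with its brightest probe on all arrays, at 95.0 to 99.2 on the low-Ogt arrays, against 97.2 to 100.3 on the others, as did Gfpt1, the entry enzyme of the pathway. Gfpt2, its second form, overlapped at 200 to 215 on the low-Ogt arrays, against 165 to 218 on the others. Uap1, which makes UDP-GlcNAc, read 546, 501 and 533 on the low-Ogt arrays, against 167, 164, 728, 457 and 169 on the others. The low-Ogt arrays were close to one another for Uap1, and the others were dim on Con 2, Con 4 and FKO 3 and bright on Con 5 and FKO 1.

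Epididymal transcripts that parted the arrays were all lower on the low-Ogt ones, but the list as a whole did not follow the grouping. Its median deviation was −0.81, −0.65 and −1.01 on the low-Ogt arrays, against 0.16, −0.71, −0.90, 1.74 and 2.56 on the others. Con 4 and Con 5 thus lay with the low-Ogt arrays. Of the list, 7 of 32 (21.9%) were lowest and 0 highest, beside 11.7% and 14.8% of all tested genes. Its summed intensity was 3638 to 4965 on the low-Ogt arrays, against 4030 to 85340 on the others. Spink8, a protease inhibitor gene of the epididymis, read 110.4, 156 and 98.4 on the low-Ogt arrays, against 2420, 309.6, 205, 9243 and 9982 on the others (separation −0.50). Defb22, a beta-defensin of that organ, read 98.9, 116 and 96.1 on the low-Ogt arrays, against 1433, 204, 160.1, 8885 and 13930 on the others (−0.66). Con 4 and Con 5 were much closer to the low-Ogt arrays than to FKO 1 and FKO 3 in both. Adam7 overlapped, since Con 5 at 132 lay under Con 1 at 142 and Con 3 at 196. Lcn8 stayed near the background limit on all arrays. Without the 3 epididymal arrays, 7 of the 32 epididymal genes (21.9%) were lowest and 2 (6.25%) highest, beside 20.5% lowest and 22.7% highest of all tested genes. Their share of lowest genes was then near that of all tested genes. Endothelial markers were then highest in 13 of 24 and lowest in 1, and cell cycle genes highest in 17 of 35 and lowest in 1. The share of the other list values that epididymal tissue sets was not tested.

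Set by label, FKO against Con, limma called 0 of 13877 probes at an adjusted p under 0.05 (0.0%; smallest adjusted p = 1). At an unadjusted p under 0.05 there were 593 probes, 319 with FKO above Con and 274 with FKO below. A t-test per probe at the methods' threshold gave 1, Gja1. It was run on the background-corrected log2 values of the tested probes. The methods used quantile-normalized values and name no level filter, so the authors' own test was not repeated. No gene of any of the 49 lists was called by limma. Among the genes described above, the log2 fold change by label was 0.08 for Aldh1a7 (standard error 1.16), 0.11 for Acadvl (0.67), −0.40 for Cdkn1a (0.61) and 0.09 for Lox (0.47). It was larger for epididymal genes, such as Defb22 at 3.53 (standard error 1.83) and Spink8 at 2.84 (1.82), which limma did not call either. Without FKO 2, the low-Ogt array labelled FKO, limma called 191 probes higher and 2 lower in FKO, and without Con 5 it called 15 lower. Without FKO 2, the arrays labelled FKO that remain, FKO 1 and FKO 3, both carry epididymal transcripts. These p-values rest on the spread from mouse to mouse.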

How the data were processed

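Each mouse gave 1 pgWAT RNA sample for an Illumina MouseRef-8 v2.0 array. Groups were taken from the sample labels. The deposited intensity values were quantile-normalized by the authors on a linear scale; the software and the summary over beads are not given in the sources used here. A table of non-normalized signals was not used, since its 16 value columns carry no sample names. In the platform annotation, 23978 of 25697 probes have 1 gene symbol, 0 have several and 1719 have none, and 23962 matched a RefSeq gene (GRCm38.p6) by Entrez ID. The background limit, 106.1, mirrors above the mode of all values (98.5) how far below it the lowest percentile lies. Intensities had their background corrected by normexp with an offset of 50, and were then quantile-normalized before log2 (R 4.3.3, limma 3.58.1). FKO and Con were compared by lmFit and eBayes, two-sided, with Benjamini-Hochberg adjustment at 0.05. On simulated data the code was tested before use. The 3 low-Ogt arrays and the other 5 were only described (Python 3.11.15, numpy 2.4.6, pandas 2.3.3, scipy 1.17.1, matplotlib 3.10.9). The genes named are Ogt, the 20 with the widest separation in each direction, and up to 5 per list, or 2 where no gene parts the arrays; other list members are named beside them after their values were seen. The grouping, the 49 lists and these rules were chosen with earlier results of these data known. No slide is named, so no batch was fitted. A t-test at the methods' thresholds (p under 0.01, fold above 1.5) assumed equal variances and used the corrected log2 values of the tested probes. Alternatives were no background correction, an offset of 16, median centring, other level filters, array weights, the replicate number as a block, every probe of a gene in place of the brightest, and arrays left out.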

Additional observations from a re-analysis of the deposited data

Results flagged for a closer look

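Of 210 named genes, 5 had 1 Con array far from the other 4 by Dixon's criterion (gap over range above 0.71), and chance marks about 1 in 20 such groups. Con 2 stood out for the epididymal genes Defb37 at 577 (other Con arrays 98.1 to 118), Defb28 at 684 (101 to 133) and Wfdc10 at 373 (101 to 118), and for the transcription factor gene Gata3 at 158 (99.6 to 106). Con 5 stood out for Hdc, the histidine decarboxylase that makes histamine, at 317 (663 to 901). None of the 5 outlying values belongs to a low-Ogt array.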

How the results depend on the processing

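The named genes were chosen for their separation, and most settings keep the order of the arrays within a probe, so that the direction was not put to a test by them. A move was judged against the pooled spread of a gene's arrays within the 2 sets. These sets mix the labels, so that spread is only a yardstick and no replicate error. Of the 210 named genes, the separation moved by more than it for 21 genes without background correction, 35 with an offset of 16 and 0 with median centring. It did so for 34 without the 3 epididymal arrays and for 3 to 30 when 1 array was left out. Among 67 other tested probes of 51 named genes that part the arrays, 49 parted them the same way, 0 the opposite way and 18 overlapped. The 1546 probes lowest and 1976 highest on the low-Ogt arrays became 925 and 1150 with a filter at 2 times the background limit (6097 probes), and 2868 and 3032 without FKO 1, FKO 3 and Con 2, where fewer arrays must be passed; leaving out 1 array gave 1669 to 1952 and 2110 to 2602. The 15 probes lower by at least 1 became 28 with an offset of 16 and 28 without the epididymal arrays (16 to 22 with 1 array left out). The 5 higher became 2 without background correction, 22 with an offset of 16 and 9 without the epididymal arrays, and 5 to 16 with 1 array left out (16 without Con 3, 10 without Con 5). Dim probes set the dependence on background: 51.6% of tested probes lay under 2 times the limit on all arrays. Of 784 list medians recomputed, 18 moved, each with all probes of a gene.

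By label, the count of called probes was 0 by limma, and the t-test at the methods' thresholds gave 1. With the replicate number as a block it was 0, with 210 probes at an unadjusted p under 0.05. The same-numbered FKO and Con arrays correlated at −0.562, −0.702 and −0.412 in their deviations. In each such pair, 1 array is a low-Ogt array and the other is not. These correlations therefore cannot show whether the numbers pair mice. Leaving out 1 array gave 0 to 193 called probes (193 without FKO 2, 15 without Con 5). The exact permutation p of Ogt by label ranged over 0.238 to 1 with ILMN_2611676, 0.524 to 1 with ILMN_1247078 and 0.429 to 0.946 with ILMN_2647864.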

Other observations

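Single genes outside the main lists held wide separations too. Diras2, a Ras-like GTPase gene, read 408, 371 and 403 on the low-Ogt arrays, against 162, 162, 166, 131 and 127 on the others. Dusp15, a phosphatase gene, read 227, 203 and 219.8 on the low-Ogt arrays, against 113, 112, 112, 109.8 and 114 on the others, near the background limit on all of the others. Ncam1, a neural cell adhesion gene, read 142, 148 and 144 on the low-Ogt arrays, against 98.8, 102, 97.5, 99.8 and 102 on the others with its brightest probe, which was under the limit on all of the others and passed the level filter through the low-Ogt arrays alone. Its other tested probe overlapped, with 109.6, 110.4 and 109.8 on the low-Ogt arrays, against 105, 105, 112, 108 and 108 on the others. In all, 55 tested probes lay above the limit on the 3 low-Ogt arrays alone, and they were not taken out of the counts given here. Acta1, of skeletal muscle actin, was lower at 154 to 192 on the low-Ogt arrays, against 292 to 917 on the others, and Mylk, a kinase of smooth muscle, at 894 to 1042 on the low-Ogt arrays, against 1285 to 3041 on the others, with Con 2 the brightest for both. Of circadian clock genes, 0 of 17 were lowest and 1 (5.9%) highest, and of immediate early genes, 1 of 23 (4.3%) was lowest and 2 (8.7%) highest. Of heat shock proteins, 2 of 25 (8%) were lowest and 4 (16%) highest. These shares were near or under the 11.7% and 14.8% of all tested genes. The heat shock list was led by Cryab at 1134 to 1524 on the low-Ogt arrays, against 670.4 to 882 on the others, and Hspb1 at 731 to 869 on the low-Ogt arrays, against 457 to 576 on the others.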
